A study of Mus musculus with 9 samples.

Results

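The Notch pathway was examined through 10 genes of the 55247 in the deposited table of read counts: the target genes Hes5, Hes1, Hey1 and Hey2, the receptors Notch1, Notch2 and Notch3, and the ligands Dll1, Jag1 and Jag2. They were taken by name, as the rows carrying these symbols, and each symbol matched 1 row. Hes5 was selected on its measured counts, which were known to be higher in the mutant libraries, so its difference between the mutant and either control is given as a description, without a test. The other 9 genes were chosen for their place in the pathway, at a time when earlier results of these data were known. All 10 passed the filter of at least 100 counts in at least 1 of 9 libraries, which 13200 genes passed. Dll1 passed it through WT library 1 and mutant library 2 only, whereas Hes5 reached it in libraries of every genotype.

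Notch receptors sit in the membrane and are activated by the ligands Delta-like (Dll) and Jagged (Jag) on a neighbouring cell. The receptor is then cut, and its inner part enters the nucleus, joins the DNA-binding protein Rbpj and switches on Hes and Hey genes, which encode repressors of the basic helix-loop-helix family. In the dorsal root ganglion (DRG), the pathway is known for holding neural crest cells back from becoming neurons and for the formation of satellite glia, and in blood vessels it acts in endothelial and mural cells.

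RNA was sequenced from DRGs of E18.5 mouse embryos to see which genes depend on the homeodomain factor Meis2 in sensory neurons. The 3 genotypes had 3 libraries each. WT embryos are labelled as WT, with no further detail of their alleles. Isl1Cre/+ embryos had Cre recombinase inserted at Isl1 on 1 chromosome, which drives it in cells that express Isl1, such as sensory neurons, and leaves a single working Isl1 copy. Isl1Cre/+::Meis2LoxP/LoxP embryos, called mutant, had that same allele and, on both chromosomes, a Meis2 gene whose exon 8 lies between LoxP sites, so they share the loss of an Isl1 copy with Isl1Cre/+ and differ from it by Meis2. The study describes its replicates in general as independent and biological, without tying libraries to embryos or litters, and the p-values measure the spread between these libraries. The ganglia were sequenced whole, so fewer cells of a type and less RNA per cell cannot be told apart.

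Libraries held 23854607 to 29103444 counts. Levels are given as cpm, the count in a library divided by its scaled size in units of 1000000 counts. Meis2 was at 95.4 to 109.9 cpm in WT libraries, 89.5 to 102 in Isl1Cre/+ libraries and 40.7 to 41.2 in mutant libraries, and Isl1 at 227 to 284, 165 to 202 and 169.5 to 216 cpm, so each was lower in the genotypes whose labels alter it. All 12 markers of sensory neurons and all 12 of satellite and Schwann glia passed the filter, against 3 of 10 for glia and progenitors of the central nervous system and 0 of 9 for spinal neurons, whose highest count was 67. WT library 1 and mutant library 2 stood apart, with median rank correlations of 0.981 and 0.979 with the other libraries, against 0.991 to 0.995 for the other 7, and results that rest on them are given with and without them.

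Hes5 is widely used as a readout of Notch, so the bases ahead of it were searched for the letters that Rbpj binds. In the RefSeq promoter table (GRCm38.p6), which holds windows of 300 bases for 8 of the 10 genes, these letters, GTGGGAA, were searched on both strands. The windows of Hes5 and Hey2 held them on each strand, in opposite orientations, and those of the other 6 genes held none. Of all 32851 windows, 6.38% held the letters on at least 1 strand and 0.1% on both. The bases upstream of the annotated starts are shown for these genes, 5′ to 3′ on the gene's strand, with the matches in capitals. The upstream stretch of Hes5 covers chr4:154960673-154960922 on the plus strand and that of Hey2 chr10:30842802-30843033 on the minus strand.
Hes5: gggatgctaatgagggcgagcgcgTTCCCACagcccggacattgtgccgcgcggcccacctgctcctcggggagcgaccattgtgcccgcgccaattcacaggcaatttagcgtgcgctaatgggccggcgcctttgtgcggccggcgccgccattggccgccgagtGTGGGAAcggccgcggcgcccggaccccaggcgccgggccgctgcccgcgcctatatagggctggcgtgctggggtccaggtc
Hey2: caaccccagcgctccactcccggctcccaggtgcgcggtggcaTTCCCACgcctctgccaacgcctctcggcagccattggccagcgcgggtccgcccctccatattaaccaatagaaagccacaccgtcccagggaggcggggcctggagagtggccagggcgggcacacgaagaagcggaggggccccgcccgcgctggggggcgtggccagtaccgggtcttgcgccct
In Hes5 the matches begin 226 and 83 bases before the start and are 136 bases apart. In Hey2 the printed match begins 207 bases before the RefSeq start, and the other begins 4 bases before it, past the end of the stretch shown. TGACAG, a core of the letters bound by Meis factors, was found in the windows of Dll1 and Notch3 and in 19.2% of all windows, and neither Hes5 nor Hey2 held it. The E-box CACGTG, bound by Hes and Hey factors, was in none of the windows of these 8 genes and in 7.15% of all. These matches are letters in a window, and binding was not measured.

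Hes5, a repressor that keeps progenitors undifferentiated, was among the members with the fewest counts. The gene (ENSMUSG00000048001.7) lies on chromosome 4 from 154960923 to 154962371 and has 1363 exonic bases. Its counts were 122, 125 and 119 in WT and 87, 116 and 105 in Isl1Cre/+, against 136, 151 and 114 for the mutant. In raw counts mutant library 3 lay below every WT library, but that library was also the shallowest. After scaling by TMM, the levels were 4.59, 4.42 and 4.13 cpm in WT, 2.96, 4.15 and 3.70 in Isl1Cre/+, against 5.11, 5.74 and 4.68 in the mutant. Each mutant library thus lay above all 6 control libraries, by a narrow margin between mutant library 3 and WT library 1.

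The log2 fold change of Hes5 was 0.24 (SE 0.16) relative to WT and 0.52 (SE 0.18) relative to Isl1Cre/+, on 3 libraries a group. The comparisons share the mutant libraries. As the rule chose Hes5 on this contrast, its lack of overlap supports nothing further, and genes whose libraries do not overlap made up 2.76% of all tested genes for mutant vs WT and 7.65% for mutant vs Isl1Cre/+. The rule did not name the difference between controls, though it drew on the libraries of both. Hes5 was at 4.38 ± 0.23 cpm (SD, n = 3) in WT and 3.60 ± 0.60 (SD, n = 3) in Isl1Cre/+. The log2 fold change was −0.27 (SE 0.17) and did not pass the test (unadjusted p = 0.157, edgeR quasi-likelihood test). Its size without Isl1Cre/+ library 1, the lowest of all, was −0.14. The larger difference of the mutant from Isl1Cre/+ than from WT goes with this lower level in Isl1Cre/+.

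At this depth counting error alone is wide for Hes5: the exact Poisson 95% interval ran from 2.37 to 3.65 cpm in Isl1Cre/+ library 1 and from 4.86 to 6.73 in mutant library 2. Without WT library 1 and mutant library 2, which stand apart, the log2 fold change relative to WT was 0.20. On the opposite strand, exons of Gm20421 cover 433 of the exonic bases (31.8%), and whether the counting used strand is not stated. Gm20421 itself had 0 to 2 counts in every library.

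**Figure D1:**
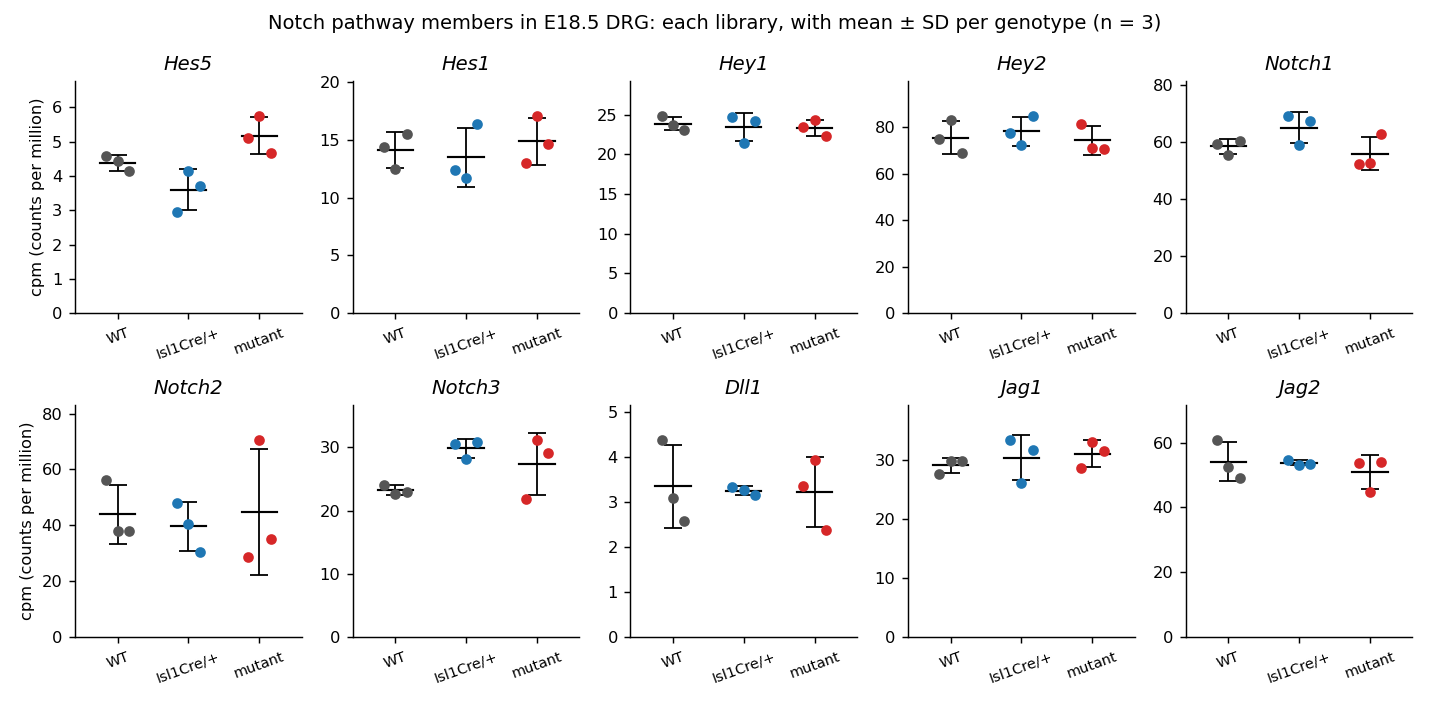
Level of each of the 10 genes in cpm (vertical axis, from 0) in WT, Isl1Cre/+ and mutant DRG libraries. Points are libraries, and the line and bars are the mean and SD of 3. The mutant libraries of Hes5 lie between 4.68 and 5.74 cpm, above all 6 controls, and Notch3 lies higher in Isl1Cre/+ (28.1 to 30.9 cpm) than in WT (22.7 to 24.1 cpm).

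The other Hes and Hey targets did not differ between genotypes beyond the spread between libraries. Hes1, which represses proneural genes in neural progenitors and oscillates with Notch activity, was at 14.4, 12.5 and 15.5 cpm in WT, 12.4, 11.7 and 16.4 in Isl1Cre/+, against 13.0, 17.0 and 14.7 in the mutant. The ranges of the 3 genotypes overlapped, and the log2 fold change was 0.08 (SE 0.14, unadjusted p = 0.608) for mutant vs WT and 0.14 (SE 0.16, unadjusted p = 0.399) for mutant vs Isl1Cre/+ in the edgeR test. Without both libraries that stand apart, the former was −0.01.

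Hey1, a target best known in endothelial cells and the heart, was at 24.8, 23.7 and 23.1 cpm in WT, 24.7, 21.5 and 24.2 in Isl1Cre/+, against 23.5, 24.3 and 22.2 in the mutant. It varied least among the targets, and its 95% interval stayed within a fold change of 1.2 in either direction in all 3 comparisons, from −0.24 to 0.17 on the log2 scale for mutant vs WT. Hey2, which acts in arterial and cardiac development, was the most abundant member per exon length. It was at 74.9, 83.0 and 68.7 cpm in WT, 77.7, 72.3 and 84.7 in Isl1Cre/+, against 81.6, 70.9 and 70.5 in the mutant, with log2 fold changes between −0.07 and 0.06 over the 3 comparisons.

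Among receptors, Notch3 was the member that passed the criterion in a comparison the rule had not used. Notch3, a receptor known in mural cells of vessels and in progenitors, was at 24.1, 22.7 and 23.0 cpm in WT and 30.6, 28.1 and 30.9 in Isl1Cre/+. These groups did not overlap. The log2 fold change was 0.37 (SE 0.08, unadjusted p = 0.00176, adjusted p = 0.9999, edgeR test adjusted by Benjamini-Hochberg), and it met the criterion in all 6 fits that each left out 1 library, at 0.34 to 0.41. The criterion is that of the study, namely 1.2-fold or more together with p below 0.05 before adjustment. For Isl1Cre/+ vs WT it was met by 1.40% of all genes tested and by 1 of 10 members, and non-overlapping libraries were seen for 5.66% of genes and for 1 of 10 members. No gene (0%) had an adjusted p under 0.05 in the edgeR test, with 236 at an unadjusted p under 0.05, and DESeq2 gave 1 gene and limma voom 0.

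Notch3 was at 21.8, 31.2 and 29.1 cpm in the mutant, where library 1 lay below the WT libraries and the other 2 lay with those of Isl1Cre/+. Its log2 fold change was 0.23 (SE 0.14, unadjusted p = 0.135) for mutant vs WT and −0.13 (SE 0.13, unadjusted p = 0.359) for mutant vs Isl1Cre/+. Without mutant library 1 the former was 0.37 and met the criterion, and the latter was 0.01.

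Some markers of vessel cells were also higher in Isl1Cre/+. Between Isl1Cre/+ and WT, all 8 endothelial markers had positive log2 fold changes (median 0.23, with Kdr at 0.52 and Pecam1 at 0.35 meeting the criterion, as 1.40% of all genes did), and their summed level was 309 to 332 cpm in WT and 345 to 457 in Isl1Cre/+. With 1 library left out, Pecam1 met the criterion in 1 of 6 fits, without WT library 2, and Kdr in 4 of 6, missing it without Isl1Cre/+ library 1 (0.41) or library 3 (0.54). The value of Kdr was 0.31 without WT library 1, which stands apart, and that of Pecam1 was 0.21. For mural cells 5 of 8 markers had positive values, 3 had negative ones (lowest −0.45) and 0 met the criterion (median 0.12), with overlapping sums of 222 to 255 cpm in WT and 244 to 309 in Isl1Cre/+. In mutant library 1, where Notch3 was lowest, both sums were lowest too, at 262 and 219.9 cpm. None of these markers was at 0, and their part in the Notch3 difference was not tested. Exons of Gm17276, with 40 to 66 counts, cover 6.03% of those of Notch3 on the opposite strand.

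Notch1, the receptor most studied in neural progenitors, was at 59.3, 55.5 and 60.2 cpm in WT, 68.8, 58.7 and 67.3 in Isl1Cre/+, against 52.3, 52.6 and 62.5 in the mutant. The Isl1Cre/+ libraries tended to lie above the mutant ones but overlapped with them, since mutant library 3 exceeded Isl1Cre/+ library 2. The log2 fold change was −0.22 (SE 0.10, unadjusted p = 0.055) for mutant vs Isl1Cre/+, 0.17 (SE 0.09, unadjusted p = 0.091) for Isl1Cre/+ vs WT and −0.06 (SE 0.10, unadjusted p = 0.541) for mutant vs WT. Leaving out mutant library 3 or Isl1Cre/+ library 2 brought the first past the criterion, at −0.31 and −0.29. Over the 9 libraries Notch1 ran opposite to Hes5 (Pearson r = −0.87 between log2 cpm), whereas the other 8 members had r between −0.36 and 0.35 with Hes5. These values describe libraries that share genotypes and scaling. No share of all tested genes with as low an r is given, so the value is not shown to be particular to Notch1. By transcript length, described below, Hes5 is in the shortest and Notch1 in the longest of 5 classes.

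Notch2, a receptor with roles in glia, bone and vessels, was the most variable member in Isl1Cre/+ and the mutant, with coefficients of variation of 22.1% and 50.3%. It was at 56.2, 37.7 and 37.9 cpm in WT, 48.0, 40.3 and 30.5 in Isl1Cre/+, against 28.7, 70.5 and 35.0 in the mutant. The highest values were those of WT library 1 and mutant library 2, the libraries that stand apart, at 1.49 and 1.87 times the median of the other 7. Its log2 fold change for mutant vs WT was 0.03 (SE 0.34, unadjusted p = 0.939) with all libraries and −0.24 without these. Its 95% interval ran from −0.76 to 0.81, so differences within these bounds were not resolved with 3 libraries a group.

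**Figure D2:**
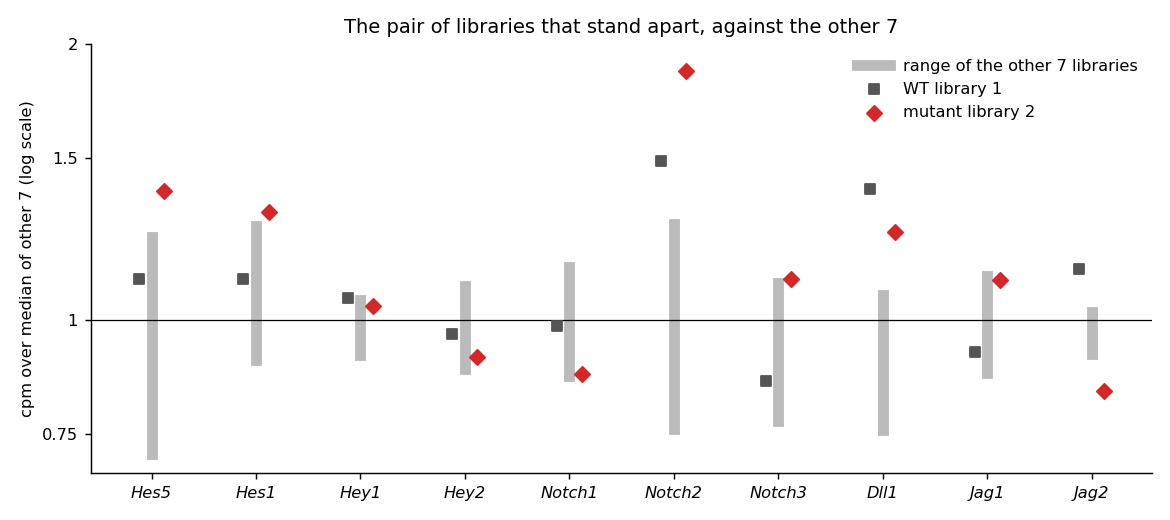
Level of each member in WT library 1 (squares) and mutant library 2 (diamonds), divided by the median of the other 7 libraries, whose range is the grey bar (log scale). Both libraries lie above that range for Notch2 (1.49 and 1.87) and Dll1 (1.39 and 1.25), and mutant library 2 also lies above it for Hes5 (1.38), Hes1 (1.31) and Notch3 (1.11). For Jag2, WT library 1 lies above it (1.14) and mutant library 2 below it (0.836), and for Hey1 WT library 1 lies just above it (1.06).

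The ligands showed no difference between genotypes beyond the spread between libraries. Dll1, which signals from newborn neurons to their neighbours, was the scarcest member, at 4.37, 3.08 and 2.57 cpm in WT, 3.34, 3.25 and 3.14 in Isl1Cre/+, against 3.35, 3.91 and 2.38 in the mutant. These values rest on 58 to 116 counts, and they had coefficients of variation of 27.7% in WT, 3.04% in Isl1Cre/+ and 24.1% in the mutant and SEs of 0.22 to 0.28 on the log2 scale. A930024N18Rik lies opposite to 20.5% of its exonic sequence. Jag1, a ligand of glia, vessels and other tissues, was at 27.6, 30.0 and 29.9 cpm in WT, 33.5, 26.2 and 31.7 in Isl1Cre/+, against 28.6, 33.1 and 31.7 in the mutant. Its log2 fold changes were small, between 0.03 and 0.10. Jag2 was at 60.8, 52.5 and 49.1 cpm in WT, 54.6, 53.2 and 53.5 in Isl1Cre/+, against 53.8, 44.8 and 53.9 in the mutant. For Isl1Cre/+ vs WT its 95% interval, from −0.20 to 0.20, stayed within a fold change of 1.2, and for mutant vs WT the log2 fold change was −0.09 with all libraries and 0.09 without both that stand apart.

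In the comparisons of the mutant, 0 of the 9 members other than Hes5 met the criterion, which 0.318% of all genes tested met for mutant vs WT and 1.67% for mutant vs Isl1Cre/+. At an unadjusted p under 0.05 the count was also 0 in the edgeR test, and DESeq2 and limma voom gave 0 members past the criterion. An adjusted p under 0.05 in the edgeR test was reached by 0.00758% of genes for mutant vs WT and 0.00758% for mutant vs Isl1Cre/+, which is 1 gene each, Meis2. With DESeq2 the numbers of genes were 1 and 10, and with limma voom 1 and 1. The median log2 fold change of these 9 members was −0.02 for mutant vs WT and −0.01 for mutant vs Isl1Cre/+, beside −0.01 and 0.00 over all genes tested.

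**Figure D3:**
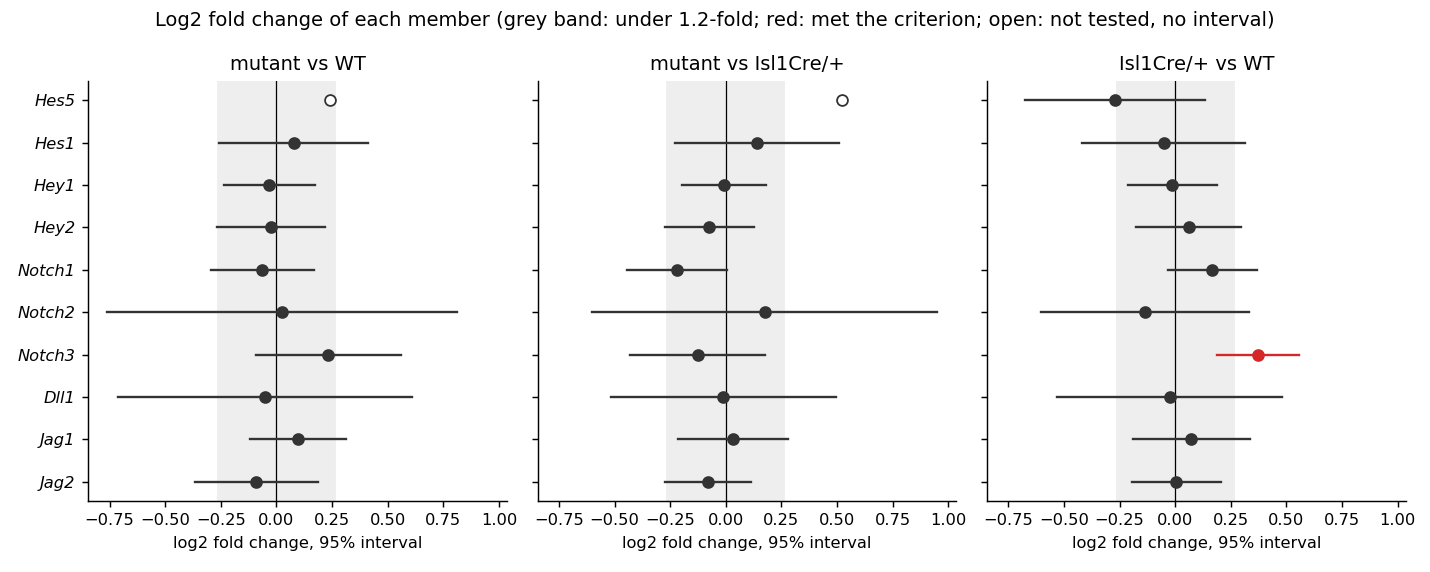
Log2 fold change (horizontal axis) of each of the 10 genes in the 3 comparisons, with the 95% interval of the edgeR fit, 3 libraries a group. The grey band covers fold changes under 1.2, Notch3 in Isl1Cre/+ vs WT is the red point that met the criterion (0.37), and the open points of Hes5 (0.24 and 0.52) were not tested.

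Per kilobase of exon, the members kept much the same order in the 3 genotypes. In WT, Hey2 led with 16.4 cpm per kilobase, followed by Jag2 (7.77), Hey1 (7.31) and Hes1 (6.93), then Jag1 (5.0), Notch1 (4.10) and Notch2 (4.07), and last Hes5 (3.22), Notch3 (2.88) and Dll1 (0.791). Of these neighbours, the ranges over libraries overlapped between Jag2 and Hey1, between Hey1 and Hes1, and between Notch1 and Notch2. In Isl1Cre/+ Hes5, at 2.64 cpm per kilobase, ranked below Notch3 (3.69), and in the mutant, at 3.80, it ranked above it (3.38) with overlapping ranges. With the longest transcript as the length, Hey2 stood at 29.6 cpm per kilobase in WT and Hes5 at 3.44, so the step between them depends on which exons are taken to be used.

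**Figure D4:**
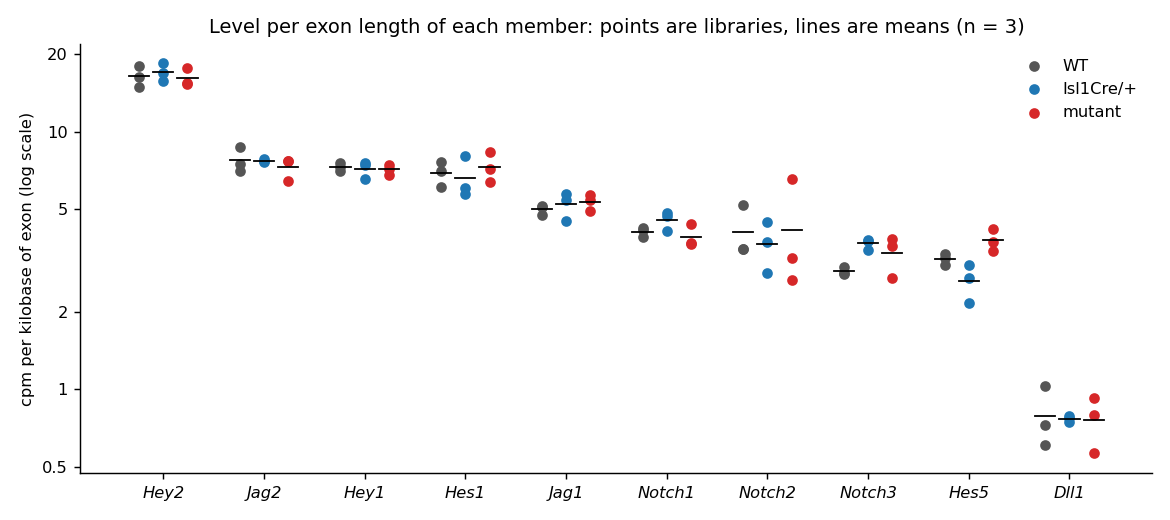
Level of the 10 genes in cpm per kilobase of exon (log scale), ordered by mean level. Points are libraries by genotype and lines are means of 3. Hey2 lies highest at about 16.4 in WT and Dll1 lowest at 0.791, and Notch2 shows the widest spread in the mutant.

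Beyond the members, 73 further genes of the pathway were listed by role, of which 64 passed the filter, and 1 of these, Bhlhe41, met the criterion in the mutant comparisons, beside 0.318% of all genes for mutant vs WT and 1.67% for mutant vs Isl1Cre/+. The count of 1 in 64 is near the latter share. Bhlhe41 encodes a circadian repressor related to Hes proteins. It was at 11.3, 14.3 and 13.1 cpm in WT, 12.8, 13.7 and 10.4 in Isl1Cre/+, against 16.6, 17.9 and 14.3 in the mutant. Its log2 fold change was 0.34 (SE 0.14, unadjusted p = 0.0443) for mutant vs WT, where mutant library 3 overlapped with WT library 2, and 0.40 (SE 0.13, unadjusted p = 0.0176) for mutant vs Isl1Cre/+ in the edgeR test. The adjusted p was above 0.99 in each. Relative to WT it missed the criterion with library size only and with the replicate block (0.34 in each) and met it in 2 of the 6 fits that each left out 1 library, and in 5 of 6 relative to Isl1Cre/+. Without both libraries that stand apart the log2 fold change relative to WT was 0.18, under the criterion. Exons of Gm43909 cover 19.0% of its exonic bases on the opposite strand.

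Its closest relative on the list, Bhlhe40, was at 14.6, 8.42 and 10.1 cpm in WT, 11.8, 14.2 and 10.7 in Isl1Cre/+, against 12.3, 31.7 and 11.1 in the mutant, where only library 2 was high. Of the other Hes and Hey genes, Heyl, a target in vascular smooth muscle, had 19.0 to 30.9 cpm in WT, 24.1 to 34.6 in Isl1Cre/+, against 21.4 to 30.0 in the mutant, and Hes6, which counteracts Hes1, had 11.96 to 16.94 cpm over all libraries. Hes2, Hes3, Hes7 and Helt had at most 12 counts in any library and were not tested. The proneural genes Neurog1, Neurog2, Neurod4 and Atoh1 were not tested either, with at most 4 counts in any library.

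Of the genes that move and read the signal, 5 are given with their levels. Rbpj, the DNA-binding partner of the cut receptor, had a mean of 27.8 ± 4.21 cpm in WT, 28.0 ± 0.42 in Isl1Cre/+ and 28.9 ± 3.24 in the mutant (SD, n = 3). Nrarp, a feedback inhibitor that is itself a Notch target, was at 27.6 ± 3.97, 29.0 ± 3.26 and 31.7 ± 3.33 cpm (SD, n = 3), though Gm38287 lies opposite to 79.4% of its exonic sequence. Lfng, which adds sugars to receptors, was at 6.21 ± 0.99, 6.49 ± 1.01 and 7.0 ± 0.59 cpm, Mib1, needed for ligand uptake, at 115 ± 11.6, 120.4 ± 6.01 and 118 ± 6.24 cpm, and Numb, an inhibitor, at 36.9 ± 3.44, 37.3 ± 1.54 and 34.4 ± 1.08 cpm (SD, n = 3). None of these 5 genes met the criterion. The WT and mutant ranges of each overlapped, and the mutant libraries of Numb (33.1 to 35.1 cpm) lay below those of Isl1Cre/+ (35.5 to 38.3 cpm), with a log2 fold change of −0.12 (unadjusted p = 0.102, edgeR test). Libraries did not overlap in this comparison for 7.65% of all genes tested, and for 2 higher and 5 lower of the 64 listed here. Other genes of these lists had larger values without meeting the criterion. Mfng, which like Lfng adds sugars to receptors, was at −0.46 for mutant vs Isl1Cre/+ (unadjusted p = 0.079) and 0.34 for Isl1Cre/+ vs WT (unadjusted p = 0.157) in the edgeR test, and Dtx1, a ubiquitin ligase of the pathway, at −0.50 for mutant vs WT (unadjusted p = 0.209) and −0.43 for Isl1Cre/+ vs WT (unadjusted p = 0.289). Aph1c, a subunit of the receptor-cutting gamma-secretase, was at 0.29 for Isl1Cre/+ vs WT (unadjusted p = 0.092, edgeR test). Crebbp, a coactivator that acetylates histones, was at −0.24 in that comparison (unadjusted p = 0.0475, edgeR test), under the fold change required, and met the criterion in 1 of 6 fits that each left out 1 library. The libraries of both genes did not overlap there, as for 5 higher and 2 lower of the 64 listed genes and 5.66% of all genes tested. For mutant vs WT this held for 0 higher and 1 lower of the 64 and for 2.76% of all genes. The lower one was Tle2, a partner of nuclear repression, at −0.29 (unadjusted p = 0.104, edgeR test), which did not meet the criterion.

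Among the other receptors and ligands, Dll4, an endothelial ligand, was at 2.41, 3.11 and 3.68 cpm in WT, 4.19, 3.82 and 4.20 in Isl1Cre/+, against 3.27, 3.61 and 3.82 in the mutant. Its Isl1Cre/+ libraries lay above those of WT (log2 fold change 0.41, where 5.66% of all genes did not overlap) and above those of the mutant (−0.19 for mutant vs Isl1Cre/+, where 7.65% did not), and it did not meet the criterion in either comparison. Notch4, the receptor of endothelial cells, was at 7.03 ± 0.94, 8.17 ± 1.45 and 6.75 ± 0.46 cpm and Dll3, an inhibitory ligand, at 4.47 ± 0.63, 4.26 ± 0.81 and 4.0 ± 0.30 cpm (SD, n = 3). Dlk1, a Delta-like protein found in immature cells, had the largest value of this list, with a log2 fold change of 0.59 (SE 0.41, unadjusted p = 0.196) for mutant vs WT and 0.32 (SE 0.24, unadjusted p = 0.221) for mutant vs Isl1Cre/+ in the edgeR test. Its level was 109 ± 51.4 cpm in WT, 130.4 ± 16.0 in Isl1Cre/+ and 163 ± 61.3 in the mutant (SD, n = 3), with ranges that overlapped, and with 1 library left out the latter fold change ran from −0.01 to 0.52 and met the criterion in 1 of 6 fits. The 5 genes of this list had a median log2 fold change of 0.10 for mutant vs WT, −0.09 for mutant vs Isl1Cre/+ and 0.22 for Isl1Cre/+ vs WT, and 0 of them met the criterion.

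By role, no list held a called gene apart from that of Bhlhe41. The 10 genes of receptor cleavage, from Adam10 to the presenilins, had a median log2 fold change of 0.03 for mutant vs WT, −0.04 for mutant vs Isl1Cre/+ and 0.07 for Isl1Cre/+ vs WT. For the 9 partners of nuclear activation these medians were −0.02, 0.01 and −0.01, and for the 12 of nuclear repression −0.02, −0.03 and 0.00. Over all 64 genes, 33 had positive values for mutant vs WT, 27 for mutant vs Isl1Cre/+ and 37 for Isl1Cre/+ vs WT, and the medians were 0.01, −0.02 and 0.02, beside −0.01, 0.00 and 0.00 over all genes tested.

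**Figure D5:**
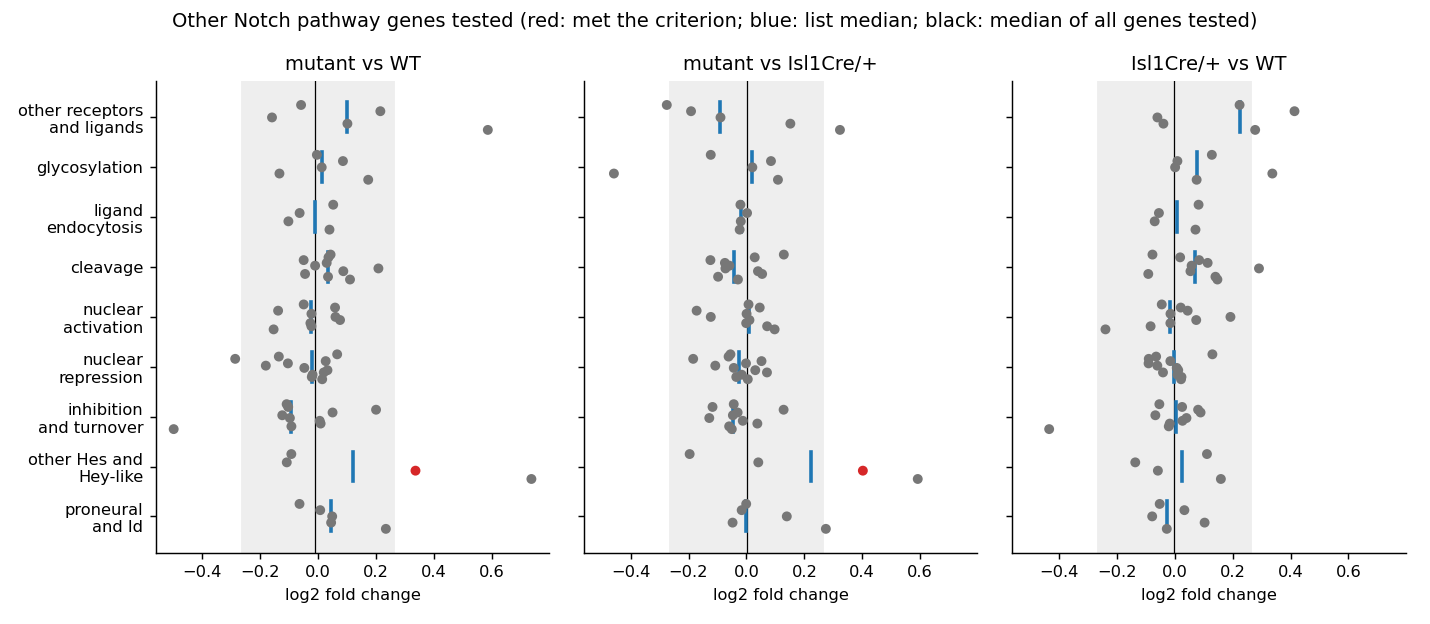
Log2 fold change of the 64 further pathway genes by role (points), with the list median (blue) and the median of all genes tested (black) in each comparison. Bhlhe41 is the red point, at 0.34 for mutant vs WT and 0.40 for mutant vs Isl1Cre/+.

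Hes5 is a short transcript, and short transcripts as a class shifted slightly between libraries. Hes5 and Hes1 are in the shortest of 5 equal classes of tested genes by transcript length, with longest transcripts of 1273 and 1468 bases. In this class the median log2 fold change was −0.05 for Isl1Cre/+ vs WT and 0.05 for mutant vs Isl1Cre/+, in the direction of Hes5, and −0.0049 for mutant vs WT. The longest class, with Notch1, Notch2, Notch3 and Jag1, had medians of 0.02, −0.03 and −0.01. The part of this shift in the difference of Hes5 was not tested.

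Markers of other cell types are given beside Hes5. Of the 12 markers of satellite and Schwann glia, 5 had positive log2 fold changes for mutant vs WT and 5 for mutant vs Isl1Cre/+, and 0 met the criterion in either. Their summed level was 1951 to 2420 cpm in WT, 1950 to 2262 in Isl1Cre/+ and 2058 to 2215 in the mutant. The 9 markers of spinal neurons were sparse, with sums of 4.27 to 5.76 cpm in WT, 0.749 to 1.43 in Isl1Cre/+ and 1.77 to 3.94 in the mutant, so that WT was highest. Sums of the 10 markers of glia and progenitors of the central nervous system overlapped, at 29.7 to 49.1 cpm in WT, 23.1 to 48.4 in Isl1Cre/+ and 28.0 to 38.8 in the mutant. Of the 6 macrophage markers 5 were tested, with 5 positive values for mutant vs Isl1Cre/+ (median 0.38), 4 for mutant vs WT (median 0.09) and 0 for Isl1Cre/+ vs WT (median −0.11), and 0 met the criterion. Their sums were 63.9 to 70.6 cpm in WT, 51.9 to 72.2 in Isl1Cre/+ and 45.7 to 120.4 in the mutant, with the highest in mutant library 2, as for Hes5. For sensory neurons 10 of 12 markers had negative values in each comparison of the mutant (medians −0.10 for mutant vs WT and −0.05 for mutant vs Isl1Cre/+). Of these 12, 1 met the criterion for mutant vs WT, beside 0.318% of all genes, and 0 for mutant vs Isl1Cre/+. It was Isl1 (−0.48), which the genotype itself alters. For fibroblasts 4 and 5 of 6 markers had positive values (medians 0.12 and 0.07). Dividing cell markers had medians of 0.01 and 0.02. Of the 8 endothelial markers 7 had positive values for mutant vs WT (median 0.09) and 0 for mutant vs Isl1Cre/+ (median −0.13), where Kdr met the criterion at −0.37, in 3 of 6 fits that each left out 1 library. Kdr missed the criterion there without mutant library 1 (−0.24), Isl1Cre/+ library 1 (−0.26) or Isl1Cre/+ library 3 (−0.40). For mutant vs WT all 8 mural markers had positive values (median 0.16, highest 0.77) and 0 met the criterion. Of the same 8 mural markers, 4 had positive and 4 negative values for mutant vs Isl1Cre/+ (median −0.04, lowest −0.32), and 3 met the criterion, beside 1.67% of all genes. These were the contractile genes Acta2, Tagln and Myh11, with log2 fold changes of 1.105, 0.88 and 0.92, each highest in mutant library 2, as Hes5 was. Without that library they were 0.56, 0.46 and 0.72 and still met it, whereas Acta2 and Tagln missed it without Isl1Cre/+ library 2 (1.05 and 0.88) or library 3 (0.94 and 0.74). The part of any of these markers in the level of Hes5 was not tested.

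The 5 tested genes whose log2 cpm ran most like that of Hes5 over the 9 libraries were Washc3 (Pearson r = 0.92), Dnajc12 (0.91), Atp6v0b (0.90), Rpl35 (0.90) and Mtg1 (0.90). They were picked as the closest of 13200 genes, and they share with Hes5 its libraries and scaling. No member of the pathway was among them. Rpl35, a ribosomal protein, was at 113 cpm in WT, 101 in Isl1Cre/+ and 126 in the mutant on average, and Washc3, a subunit of the WASH complex, at 16.8, 15.4 and 17.7 cpm.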

How the data were processed

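Poly(A) RNA of DRGs was sequenced in 9 libraries of 3 genotypes, grouped by their labels. The authors made the deposited counts with STAR 2.7.10 (alignment of single-end reads, mm10) and HTSeq 0.6 (uniquely mapped reads per gene), after duplicates had been removed by their unique molecular identifiers. The annotation release and strand option are not given in the sources used here. The table also holds 18 columns of the authors' own comparisons (limma log2 fold changes, p-values and related statistics), which were not used.

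Gene identifiers were matched to GENCODE M21 on GRCm38 (55154 of 55247), which gave positions, exon lengths and overlaps. Genes reaching 100 counts in any library entered the tests, each pair of genotypes alone, with TMM and the two-sided quasi-likelihood test of edgeR 4.0.16 in R 4.3.3, with Benjamini-Hochberg adjustment over all genes tested. SEs are the log2 fold change over the square root of F, and levels (cpm) are counts over the TMM-scaled library size in units of 1000000 counts (23854607 to 29103444 counts before scaling). Unique molecular identifiers limit amplification error, so Poisson intervals cover counting error only. Log2 correlations used a prior count of 2. The procedure was tested on simulated data.

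The members and gene lists were chosen with earlier results of these data known. Named genes are the 10 members, listed pathway genes that met the criterion or were named by role in the rule, Meis2 and Isl1, the 5 genes most like Hes5 and genes opposite to Hes5. Further genes were named after their values were seen. These are Bhlhe40, Mfng, Dtx1, Aph1c, Crebbp, Tle2, Dlk1, listed genes too low to test, marker genes, further overlapping genes and genes most like Notch1, Notch2 and Jag2. Alternatives were the size factors of DESeq2 1.42.0, library size only, no filter, the DESeq2 Wald test, limma voom (limma 3.58.1), all 3 groups in 1 fit, a replicate block, each library left out, no fold change requirement and transcript length. Leaving out both libraries that stand apart was added after seeing the data. Results on some genes are not reported here.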

Additional observations from a re-analysis of the deposited data

How the results depend on the processing

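The number of members past the criterion, counted without Hes5 in the comparisons of the mutant, stayed at 0, 0 and 1 (mutant vs WT, mutant vs Isl1Cre/+, Isl1Cre/+ vs WT) under every alternative with all libraries. Notch3 in Isl1Cre/+ vs WT met it in each, and in the 6 fits that each left out 1 library it was at 0.34 to 0.41. With 1 library left out, the members past it ranged from 0 to 1 for either comparison of the mutant. The genes called over the whole table were 42, 221 and 185 (mutant vs WT, mutant vs Isl1Cre/+, Isl1Cre/+ vs WT). Without the filter on low counts, more genes were tested and 408, 1028 and 845 were called. With no fold change required, 360 were called for mutant vs Isl1Cre/+. Leaving out both libraries that stand apart gave 182 for mutant vs WT. Leaving out 1 library gave 40 to 132 for mutant vs WT (132 without WT library 1, 120 without mutant library 1, 74 without mutant library 2 and 67 without WT library 3), 167 to 407 for mutant vs Isl1Cre/+ (407 without mutant library 1) and 102 to 340 for Isl1Cre/+ vs WT (340 without WT library 1 and 102 without Isl1Cre/+ library 3). The causes were not tested.

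Log2 fold changes near 0 turned their sign under some settings. For mutant vs WT, Notch2 was at −0.057 under limma voom and −0.059 with the replicate block, and without both libraries that stand apart Notch2 was at −0.24, Hes1 at −0.013, Hey2 at 0.0095, Dll1 at 0.029 and Jag2 at 0.090. For Isl1Cre/+ vs WT, Hey1 was at 0.015 and Dll1 at 0.011 with library size only, Dll1 at 0.0088 under limma voom, and Jag2 at −0.0086 with all 3 groups in 1 fit. With 1 library left out, the ranges for mutant vs WT were −0.011 to 0.17 (Hes1), −0.056 to 0.00049 (Hey1), −0.096 to 0.049 (Hey2), −0.44 to 0.26 (Notch2), −0.21 to 0.19 (Dll1) and −0.16 to 0.016 (Jag2). For mutant vs Isl1Cre/+ they were −0.067 to 0.030 (Hey1), −0.31 to 0.41 (Notch2), −0.23 to 0.0086 (Notch3), −0.17 to 0.16 (Dll1), −0.065 to 0.11 (Jag1) and −0.13 to 0.0079 (Jag2). For Isl1Cre/+ vs WT they were −0.22 to 0.038 (Hes1), −0.047 to 0.044 (Hey1), −0.0066 to 0.14 (Hey2), −0.29 to 0.055 (Notch2), −0.18 to 0.19 (Dll1), −0.056 to 0.072 (Jag2) and −0.16 to 0.042 (Bhlhe41). Hes5 ran from 0.18 to 0.31 for mutant vs WT, 0.40 to 0.64 for mutant vs Isl1Cre/+ and −0.38 to −0.14 for Isl1Cre/+ vs WT. Hes5 was chosen for being higher in the mutant, and each mutant library lay above all 6 controls. Its constant sign in the comparisons of the mutant therefore supports nothing further. Bhlhe41 missed the criterion for mutant vs WT with library size only (0.34) and with the replicate block (0.34).

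Replicate numbers are shared by the genotypes, but libraries with the same number did not deviate together (correlations from −0.60 to 0.39 over the 9 pairs). Pairs with different numbers ranged from −0.57 to 0.55. With 3 libraries a group, these values cannot tell whether libraries of the same number share a litter or preparation. With the replicate block, 31, 177 and 236 genes were called (mutant vs WT, mutant vs Isl1Cre/+, Isl1Cre/+ vs WT), and 0, 0 and 1 members. At 58 to 151 counts a library, Hes5 and Dll1 had the fewest counts of the members and so the widest relative counting error.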

Other observations

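Notch2 was followed further because of its spread, so the genes below were chosen after its values were seen. The 5 tested genes whose log2 cpm ran most like that of Notch2 over the 9 libraries were Ecrg4, Fgfr2, Syne3, Stra6 and Fcgrt, with Pearson r between 0.98 and 0.99, above the closest matches of any other member (at most 0.98, Rusc2 with Jag2). Fgfr2, a receptor of fibroblast growth factors, was at 17.4 cpm in WT library 1, 26.0 in mutant library 2 and 7.56 to 14.7 in the other 7 libraries. Stra6, which takes retinol into cells, was at 21.9, 30.8 and 10.5 to 21.8 cpm in the same order, and Fcgrt, the neonatal Fc receptor, at 30.8, 47.9 and 14.0 to 25.7 cpm. For each of the 5, WT library 1 and mutant library 2 were the highest libraries, as for Notch2, and their group means differed less between genotypes than these libraries did from the rest. The cause was not tested.

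Clstn1, a synaptic gene among those whose pattern was closest to Jag2, lay apart in opposite directions in these libraries. It was at 542 cpm in WT library 1 and at 397 cpm in mutant library 2, against 457 to 493 cpm in the other 7. Jag2 itself was at 60.8 and 44.8 cpm in these libraries. For Notch1, the closest genes were Ttyh2, Zdhhc5 and Aatk, with Pearson r of 0.97, 0.96 and 0.94 over the 9 libraries.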
